A study of Mus musculus with 20 samples.

Results

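The integrated stress response is a programme that cells switch on when protein synthesis, amino acid supply or protein folding is strained. The 10 genes described here are its central regulators and well-known targets: Atf4, Atf5, Ddit3, Trib3, Chac1, Asns, Psat1, Phgdh, Shmt2 and Ppp1r15a. They were picked by gene name, in a choice made with earlier results of these data known, from the 25719 rows of a table of read counts per gene. The names matched 11 rows, because Ddit3 is listed under 2 Ensembl identifiers. All 10 genes passed the filter on low counts.

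Counts were from flow-sorted keratinocytes of the ear and back skin of 20 mice. All mice carried the floxed Cyp11b1 alleles (L2/L2) and all received tamoxifen on 5 days, with cells collected on day 6. Cyp11b1 encodes the enzyme that makes corticosterone. The knockout mice (cKO) also carried K14-CreERTam, a tamoxifen-activated Cre driven by the promoter of the basal keratin Krt14, so deletion was directed to keratinocytes, and the controls were littermates without Cre. Tamoxifen was either put on the skin (topical, 20 µl on the ear and 100 µl on the back) or injected into the peritoneum (systemic, 100 µl at 10 mg/ml). This gave 4 groups of 5 mice: topical control, topical cKO, systemic control and systemic cKO. The topical mice were also shaved on the back and received ethanol as vehicle, whereas the injected mice received oil with ethanol, so route, shaving and vehicle cannot be told apart. Ages and an untreated group were not analysed here. RNA was taken from 2000000 sorted cells for each sample. In such bulk samples, fewer cells of one kind and less RNA per cell cannot be told apart.

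As background, 4 kinases sense amino acid shortage, unfolded protein in the endoplasmic reticulum, double-stranded RNA or haem shortage, and all phosphorylate the translation factor eIF2alpha. Most translation then slows, while the messages for ATF4 and ATF5 are translated better. ATF4 binds DNA as a dimer with C/EBP proteins and switches on genes for amino acid synthesis, transport and tRNA charging, and under strong stress the genes Ddit3, Trib3 and Chac1. PPP1R15A (GADD34) brings a phosphatase to eIF2alpha and so ends the response. Because ATF4 is set largely at translation, the level of its message is not a measure of its protein.

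Promoter sequences show how the members differ in the DNA letters that such dimers can read. The RefSeq promoter table for GRCm38.p6 held 12 promoters of the 10 genes, each running from 250 bases before to 50 after a start site. They were searched on both strands for TGATGNAA and TGNNGCAA, which are forms of the C/EBP-ATF site and can overlap each other. These patterns were chosen after the sequences had been seen. TGATGNAA occurred in 3 members (Chac1, Trib3 and Asns) and in 3.97% of all 32851 promoters of that length. TGNNGCAA occurred in 4 members (Chac1, Trib3, Atf5 and Psat1) and in 11.4% of all promoters. The other 5 members, Atf4 among them, had neither. A match is a description of letters, not evidence of binding. The stretches below are shown because Asns and Psat1 carry the route differences reported further on, and because Chac1 and Trib3, which also carry matches, were not called by edgeR in any comparison. Each is written 5′ to 3′ on the gene's strand with the matches in capitals, and a match on the opposite strand appears as its reverse complement.
Asns, chr6:7693214-7693243, minus strand, in the first exon of the annotated gene, 34 to 5 bases before the RefSeq start: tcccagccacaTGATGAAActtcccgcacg
Psat1, chr19:15925148-15925235, minus strand, in an intron of the longer annotated gene, 176 to 89 bases before the RefSeq start: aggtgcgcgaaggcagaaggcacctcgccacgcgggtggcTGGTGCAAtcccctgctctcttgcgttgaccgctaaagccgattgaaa
Chac1, chr2:119350992-119351096, plus strand, upstream of the gene, 250 to 146 bases before the start: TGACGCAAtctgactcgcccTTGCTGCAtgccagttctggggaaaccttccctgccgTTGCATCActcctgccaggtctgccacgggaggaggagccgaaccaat
Trib3, chr2:152344061-152344133, minus strand, upstream of the gene, 73 to 1 bases before the start: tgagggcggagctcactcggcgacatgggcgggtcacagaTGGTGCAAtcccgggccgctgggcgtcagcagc
The Chac1 stretch holds 3 matches within its 105 bases, and the other stretches hold 1 each. In Chac1, TTGCATCA is read on the opposite strand as TGATGCAA and so matches both patterns. The TGATGNAA match of Trib3 lies just after its start site, outside the stretch shown.

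Libraries held 11588851 to 50082771 counted reads. Correlations of log2 levels between libraries of one group lay between 0.93 and 0.99. All 8 keratinocyte markers were found in every library, with a summed level of 80459 to 113772 CPM (counts per 1000000 counted reads). Summed levels, those of satellite-like transcripts among them, are without TMM scaling. Levels of single genes are TMM-scaled unless stated. Summed leukocyte markers reached at most 34.3 CPM, fibroblast markers 32.0, melanocyte markers 36.1 and endothelial markers 8.11. Ptprc, the pan-leukocyte marker, was at 0 in 10 libraries, Cd3e of T cells in 12, Trdc in 15 and Lyz2 in 9. Cd207 was at 0 in 2 libraries and Itgam in 1. Cd74 and Csf1r were found in every library (means of 12.8 and 3.66 CPM without TMM scaling). Cyp11b1 had 0 to 6 reads a library and was at 0 in 11, so its counts do not check the genotype labels. Satellite-like repeat transcripts set 6 libraries apart, the 5 systemic controls and systemic cKO 2, at 77.3 to 36415 CPM against 0.839 to 41.3 CPM in the other 14. Genes of the immediate early response, which cell dissociation is known to induce, summed to 25095 to 36097 CPM in topical controls and 28454 to 32978 CPM in topical cKO. In systemic controls they summed to 44914 to 59445 CPM and in systemic cKO to 40431 to 58326 CPM. Before TMM scaling, every systemic library thus stood above every topical one. Some markers moved with route. Krt15, a basal and hair follicle keratin, rose in systemic controls (log2 fold change 1.25, 21676 against 9094 CPM, without overlap), as did the melanocyte gene Pmel (0.77), while the endothelial gene Tie1 fell in controls (-1.51) and knockouts (-2.35) at levels of at most 1.02 CPM on average. The part of these features in the route differences below is given where a fit could be made and otherwise was not tested.

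Per kilobase of exon, the members spanned more than 2 orders of magnitude. Mean levels over the 4 groups were 99.3 CPM per kb for Ppp1r15a, 78.3 for Atf4 and 69.5 for Phgdh, whose libraries overlapped. Psat1 followed at 35.7 CPM per kb, and its highest library (54.5) lay above the lowest of Phgdh (35.4). Asns at 12.9 and Shmt2 at 12.1 CPM per kb were not separated beyond their spread. Ddit3 stood at 6.02 CPM per kb. The lowest were Trib3 at 1.90, Atf5 at 1.21 and Chac1 at 0.471 CPM per kb, each overlapping its neighbour in this order. Thus the serine-synthesis enzymes and Atf4 were abundant messages in these cells, and the genes known from strong stress were scarce. Chac1 rested on 5 to 30 reads a library, so its values are imprecise.

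**Figure D1:**
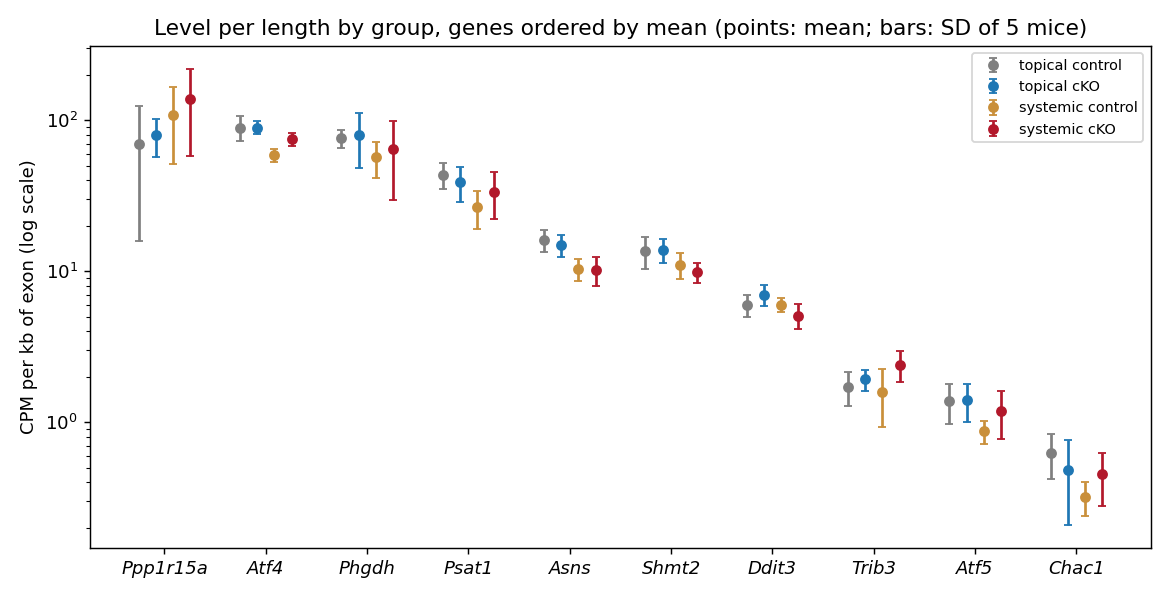
Level of each gene per kilobase of exon, in CPM per kb on a log axis, with a point at each group's mean, a bar for the SD of 5 mice and groups by colour. Ppp1r15a, Atf4 and Phgdh lie highest, and Trib3, Atf5 and Chac1 lowest.

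The first question was whether the route of tamoxifen changed the programme in mice that kept Cyp11b1. Atf4, Asns and Psat1 were lower in systemic than in topical controls at an adjusted p under 0.05 (edgeR quasi-likelihood test, Benjamini-Hochberg over 12424 genes), which is what "called" means here. None of the 10 was called higher. This comparison called 18.3% of all genes either way, 10.2% higher and 8.16% lower, so 3 called genes of 10 must be read against a comparison in which many genes moved. The median log2 fold change was -0.51 over the 10 genes and 0.000806 over all genes tested, and 8 of the 10 lay below 0, as did 49.9% of all genes.

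Among the transcription factors, Atf4 (ENSMUSG00000042406, chr15:80255184-80257541) had levels of 191, 243, 186, 172 and 264 CPM in topical controls 1, 3, 5, 6 and 7. In systemic controls 1, 3, 4, 5 and 6 it had 152, 141, 120, 151 and 132 CPM. Every systemic control lay below every topical control. The means were 211 ± 39.9 and 139 ± 13.5 CPM (SD, n = 5 each), and the log2 fold change was -0.60 with an SE of 0.15 (adjusted p = 0.00922). Atf5, a related factor that is likewise regulated at translation, had 2.76 ± 0.834 CPM in topical and 1.73 ± 0.299 CPM in systemic controls (log2 fold change -0.69, SE 0.26, adjusted p = 0.0720), and the groups overlapped. It was called lower in 2 of 12 other ways of fitting, DESeq2 (adjusted p = 0.0466) and limma voom (adjusted p = 0.0163). With edgeR it was called in 1 of 20 fits with 1 library left out, without topical control 5 (adjusted p = 0.0257). Ddit3, which encodes CHOP, a factor tied to cell death under lasting stress, had 10.2 ± 1.68 and 10.3 ± 1.13 CPM (log2 fold change 0.0049, SE 0.15, adjusted p = 0.985). The direction of that near-zero value changed with the processing. The smaller Ddit3 row covers 105 exonic bases, all shared with the main gene, and held 1.59 and 1.42 CPM in these groups. How reads were divided between the rows is uncertain, so only its levels are given.

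Of the amino acid enzymes, Asns (ENSMUSG00000029752, chr6:7675169-7693254) makes asparagine and is a classic ATF4 target. It had 43.2, 40.6, 56.7, 38.2 and 42.4 CPM in topical controls 1, 3, 5, 6 and 7, and 33.2, 21.9, 26.1, 32.4 and 27.1 CPM in systemic controls 1, 3, 4, 5 and 6. Again no systemic control reached the lowest topical control. The means were 44.2 ± 7.25 and 28.1 ± 4.69 CPM, and the log2 fold change was -0.65 with an SE of 0.16 (adjusted p = 0.00707). Non-overlapping groups with the lower level in systemic mice were found for 2 of the 10 members and for 6.26% of all genes.

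Psat1 (ENSMUSG00000024640, chr19:15904678-15947337) encodes the aminotransferase of the serine pathway. Its levels were 210, 193, 220, 126 and 178 CPM in topical controls 1, 3, 5, 6 and 7, and 158, 86.9, 90.9, 133 and 94.9 CPM in systemic controls 1, 3, 4, 5 and 6. Topical control 6 lay within the range of the systemic controls, and the other 4 lay above it. The log2 fold change was -0.72 (SE 0.24, adjusted p = 0.0396). This call was the least stable of the 3: it was lost on leaving out any one of topical controls 1, 3, 5 or 7 or systemic controls 3, 4 or 6, with an adjusted p of up to 0.107. Phgdh, the entry enzyme of serine synthesis, had 189 ± 25.0 and 141 ± 37.8 CPM (log2 fold change -0.42, SE 0.30, adjusted p = 0.341). For Shmt2, which turns serine into glycine in mitochondria, the levels were 42.2 ± 10.1 and 34.3 ± 6.81 CPM (log2 fold change -0.30, SE 0.17, adjusted p = 0.235).

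The feedback and strong-stress genes were not called by edgeR. Ppp1r15a had 135, 454, 55.8, 117 and 265 CPM in topical controls 1, 3, 5, 6 and 7 and 261, 198, 452, 534 and 145 CPM in systemic controls 1, 3, 4, 5 and 6. Its spread within each group was wide, and the log2 fold change of 0.63 (SE 0.48) had an adjusted p of 0.378. Trib3, a pseudokinase that dampens ATF4 and CHOP, had 3.63 ± 0.917 and 3.37 ± 1.39 CPM (log2 fold change -0.11, SE 0.25, adjusted p = 0.799). The sign for Trib3 also changed with the processing. Chac1, an enzyme that breaks down glutathione, had 1.02 ± 0.336 and 0.525 ± 0.137 CPM (log2 fold change -0.96, SE 0.37, adjusted p = 0.0735). It was called lower with limma voom (adjusted p = 0.0329) and with the mitochondrial share as covariate (adjusted p = 0.0470).

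**Figure D2:**
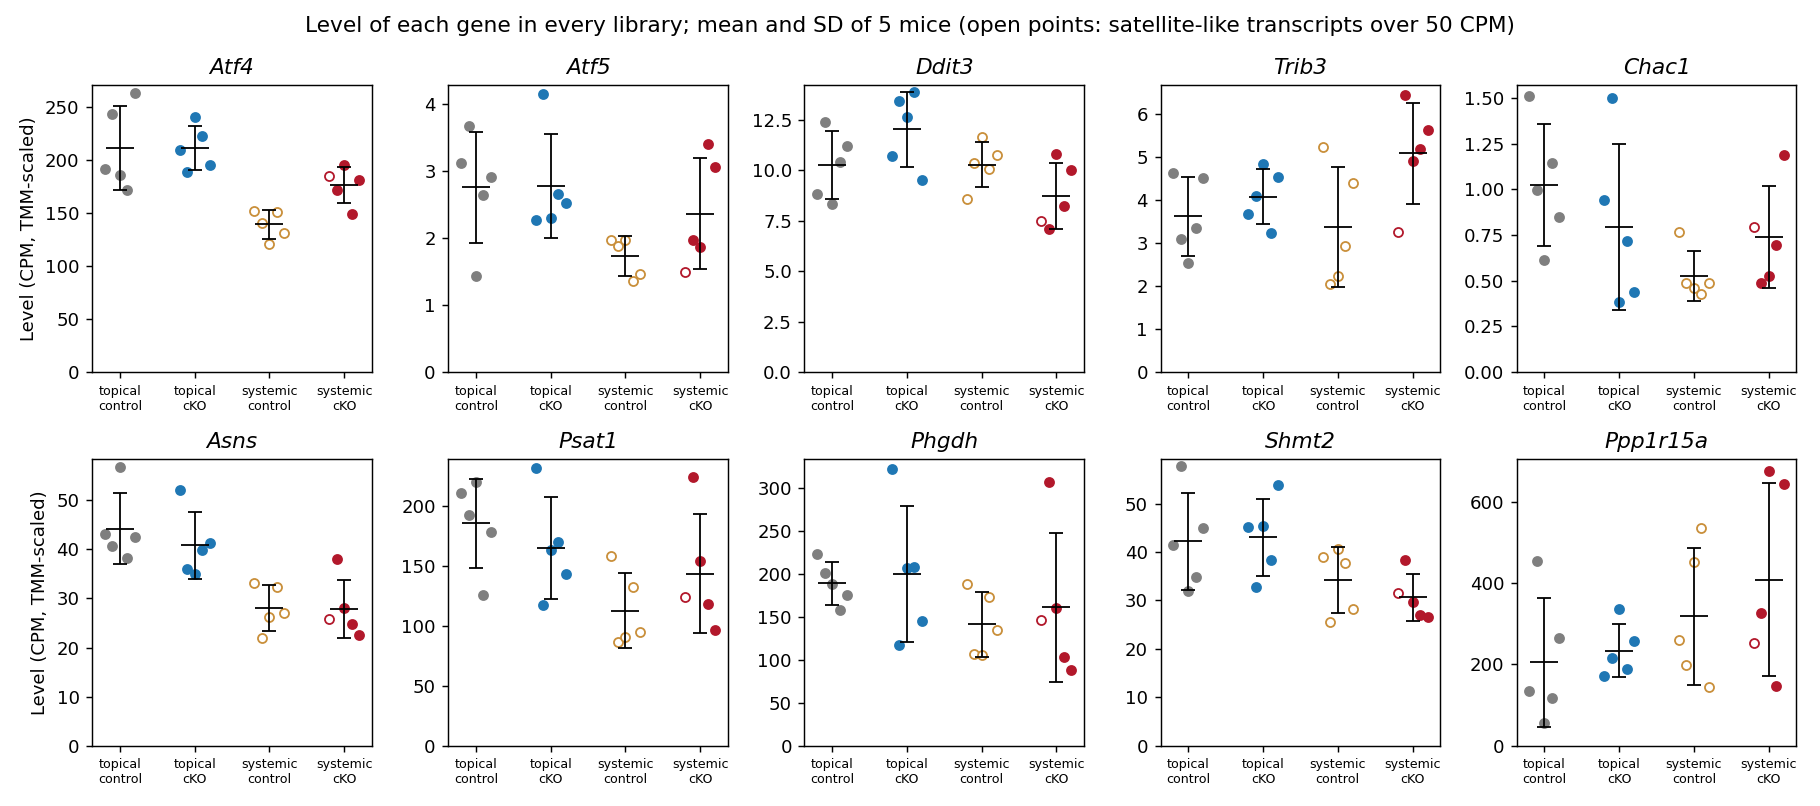
Level of each of the 10 genes in CPM (linear axes from 0) in the 4 groups, with 1 point a mouse, bars for the mean and SD of 5 mice, and open points for the 6 libraries with satellite-like transcripts over 50 CPM. In Atf4 and Asns the systemic controls all lie below the topical controls, while Ppp1r15a ranges from 55.8 to 674 CPM.

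The satellite-like transcripts split the control libraries exactly as the route does. With their log2 level in the model, the route log2 fold change for Atf4 was -0.61 (SE 0.20, adjusted p = 0.167). It was -0.45 for Asns (SE 0.20, adjusted p = 0.348) and -0.39 for Psat1 (SE 0.29, adjusted p = 0.635). Without it the values were -0.60 (SE 0.15), -0.65 (SE 0.16) and -0.72 (SE 0.24). None of the 10 genes was called with this covariate. That model called 0.95% of all genes. Within the controls, route and this feature cannot be told apart.

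The same route question in the knockouts called 1 member, Asns, against 9.22% of all genes called either way, 5.19% called higher and 4.02% called lower. Asns levels were 52.1, 36.03, 34.9, 39.9 and 41.2 CPM in topical cKO 2, 3, 4, 5 and 7, and 25.9, 37.9, 28.04, 24.7 and 22.6 CPM in systemic cKO 2, 4, 5, 6 and 7. Systemic cKO 4 lay within the topical range, and the other 4 lay below it. The log2 fold change was -0.55 (SE 0.16, adjusted p = 0.0309). That call was lost on leaving out any one of topical cKO 2, 5 or 7 or systemic cKO 2, 5, 6 or 7, with an adjusted p of up to 0.0896. It was also lost with satellite-like transcripts over 50 CPM as covariate (adjusted p = 0.0618), with all genes that had a count (0.0529) and in a fit of only these libraries (0.0644), and was kept with the log2 level of those transcripts (0.0281). Of the 10 members 8 lay below 0, as did 51.5% of all genes, with a median of -0.25 against -0.0127 over all genes.

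Atf4 had 209, 189, 241, 223 and 195 CPM in topical cKO 2, 3, 4, 5 and 7 and 185, 172, 195, 149 and 181 CPM in systemic cKO 2, 4, 5, 6 and 7. The groups overlapped only through systemic cKO 5, and the log2 fold change of -0.26 (SE 0.15) had an adjusted p of 0.319. Psat1 moved by -0.20 (SE 0.24, adjusted p = 0.661) and Phgdh by -0.31 (SE 0.30, adjusted p = 0.574). Ddit3 stood at 12.0 ± 1.86 CPM in topical and 8.72 ± 1.63 CPM in systemic cKO (log2 fold change -0.46, SE 0.15, adjusted p = 0.0551). The values for Shmt2 were 43.1 ± 7.95 and 30.7 ± 4.80 CPM (log2 fold change -0.49, SE 0.17, adjusted p = 0.0852). Both of these were near the threshold and were called in 3 of 13 other ways of fitting.

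The remaining members stayed further from it. Log2 fold changes were -0.24 for Atf5 (SE 0.26, adjusted p = 0.626), -0.18 for Chac1 (SE 0.37, adjusted p = 0.817) and 0.34 for Trib3 (SE 0.24, adjusted p = 0.426). The sign for Chac1 rested on topical cKO 3, without which it was 0.15. Ppp1r15a had 173, 216, 335, 189 and 258 CPM in topical cKO 2, 3, 4, 5 and 7 and 253, 327, 674, 146 and 643 CPM in systemic cKO 2, 4, 5, 6 and 7 (log2 fold change 0.80, SE 0.48, adjusted p = 0.331). It was high in systemic cKO 5 and 7, and the groups overlapped. Beside it, edgeR called 5 of the 17 dissociation genes higher after systemic treatment in each genotype. Of all genes it called 10.2% higher in controls and 5.19% higher in knockouts. Leaving out 1 library gave 1 to 12 of the dissociation genes called higher in controls and 1 to 5 in knockouts. Egr1 was up by 1.26 in controls and 1.55 in knockouts on the log2 scale. DESeq2 and limma voom each called 11 higher and 1 lower in controls, and 5 and 3 higher in knockouts. These tools called 22.3% and 28.1% of all genes either way in controls, and 12.4% and 11.9% in knockouts.

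**Figure D3:**
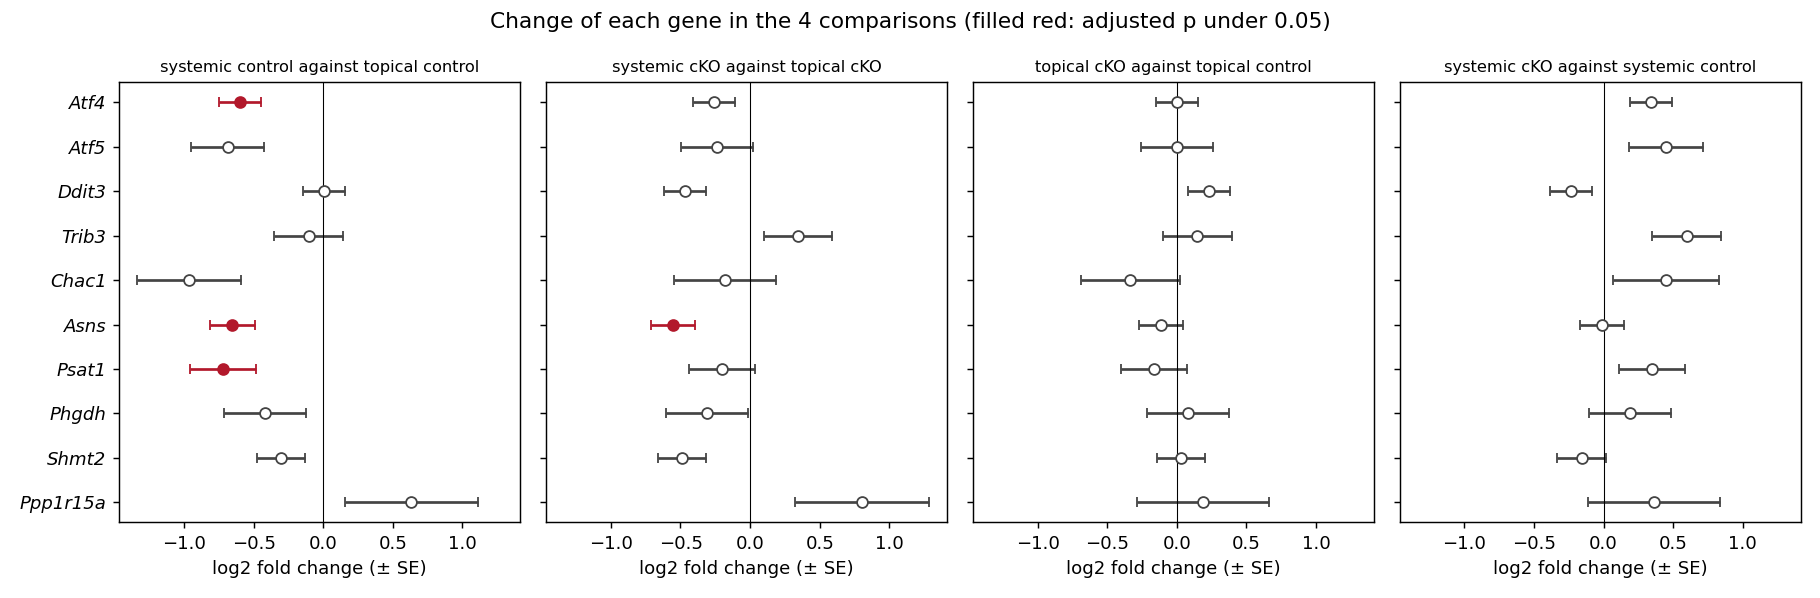
Log2 fold change with its standard error for the 10 genes in the 4 comparisons of groups, filled red where the adjusted p was under 0.05. Atf4, Asns and Psat1 are filled in the controls' route comparison, Asns alone in that of the knockouts, and none in the 2 genotype comparisons.

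The central question of the study was what loss of keratinocyte Cyp11b1 does at each route. After topical tamoxifen none of the 10 genes was called by edgeR, DESeq2 or limma voom, and none had an unadjusted edgeR p under 0.05. Background was low too, at 0.129% of genes called by edgeR, 0.338% by DESeq2 and 0.209% by limma voom, and 5.66% at that unadjusted p. Atf4 averaged 211 ± 39.9 CPM in controls and 211 ± 21.0 CPM in knockouts. Asns had 44.2 ± 7.25 and 40.8 ± 6.82 CPM, Psat1 186 ± 37.0 and 165 ± 42.5 CPM, and Phgdh 189 ± 25.0 and 200 ± 78.6 CPM. The log2 fold changes of the 10 genes ran from -0.33 for Chac1 (SE 0.36) to 0.23 for Ddit3 (SE 0.15), with a median of 0.016 against 0.0196 over all genes. The groups overlapped for every one of the 10 and failed to overlap for 1.4% of all genes.

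After systemic tamoxifen edgeR called 1.89% of all genes between knockouts and controls. That share ranged from 0.643% without systemic cKO 6 to 6.26% without systemic cKO 2, and was 0 with either satellite-like covariate. It was 4.5% with DESeq2, 2.83% with limma voom and 10.6% with the mitochondrial share as covariate. Again none of the 10 members was called by edgeR, DESeq2 or limma voom. At an unadjusted edgeR p under 0.05 there were 2 members, against 15.3% of all genes. Trib3 was one of them, with 5.23, 2.05, 2.24, 2.93 and 4.40 CPM in systemic controls 1, 3, 4, 5 and 6 and 3.26, 6.45, 4.92, 5.19 and 5.63 CPM in systemic cKO 2, 4, 5, 6 and 7. The groups overlapped, and the log2 fold change was 0.60 (SE 0.25, unadjusted p = 0.0239, adjusted p = 0.238). Atf4 was the other, at 139 ± 13.5 CPM in controls and 176 ± 17.3 CPM in knockouts. Systemic cKO 6, at 149 CPM, was the only knockout within the control range, and the log2 fold change was 0.34 (SE 0.15, unadjusted p = 0.0350, adjusted p = 0.279). Ddit3 lay on the other side of 0, at -0.24 (SE 0.15). Values of the 10 genes had a median of 0.35 against -0.0045 over all genes, and 3 lay below 0, as did 50.5% of all genes. The satellite-like transcripts were over 50 CPM in all 5 systemic controls and in 1 of the 5 systemic knockouts. With that split in the model the value for Trib3 became -0.059 (SE 0.44). Within groups the split differs only for systemic cKO 2, so this value rests on that library. The direction for Trib3 was not stable, being reversed in 1 of 12 alternatives and in 0 of 20 fits with 1 library left out.

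Whether the genotype effect differed between routes was tested as an interaction, which called 0.25% of all genes with edgeR and none of the 10 members with edgeR, DESeq2 or limma voom. The share of all genes was 3.74% without systemic cKO 2, 1.19% without systemic control 1, and 0 with either satellite-like covariate. It was 2.58% with DESeq2, 1.64% with limma voom and 2.93% with the mitochondrial share as covariate. Ddit3 alone had an unadjusted edgeR p under 0.05, as did 14% of all genes, with a difference of -0.47 (SE 0.21, unadjusted p = 0.0379, adjusted p = 0.319). The difference was 0.78 for Chac1, 0.34 for Atf4 (adjusted p = 0.498) and 0.52 for Psat1 (adjusted p = 0.512). For Asns it was 0.10 (adjusted p = 0.881), and its sign changed with the processing. That Atf4 and Psat1 were called between routes in controls and not in knockouts therefore does not show that the route effect differed by genotype.

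Within groups, 3 of the amino acid enzymes varied together from mouse to mouse. Phgdh and Psat1 lay on the same side of their group medians in 15 of 15 libraries where neither was itself the median. The count was 13 of 14 for Asns and Psat1 and 12 of 14 for Phgdh and Asns. For Shmt2 it was 8 of 12 with Phgdh, 8 of 12 with Asns and 7 of 12 with Psat1. High counts were also found elsewhere, with 11 of 13 for Ppp1r15a and Shmt2 and 10 of 12 for Phgdh and Atf4. Asns, Psat1 and Phgdh shared their highest library in 3 groups: topical cKO 2, systemic control 1 and systemic cKO 4. In systemic cKO 4, Phgdh reached 306 CPM against 88.03 to 160.1 CPM in the other systemic knockouts, and Psat1 reached 224 CPM against 96.9 to 154 CPM. Ddit3 did not follow, lying on the same side as Asns in 1 of 12 libraries. These counts describe mice of the same 4 groups, are named after their values were seen and carry no test.

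By likeness of profile over the 20 libraries (root mean square difference of centred log2 CPM), the genes nearest to Atf4 were Sin3b (0.155), Dlst (0.178) and Vdr (0.181). For Asns they were Pno1 (0.151), Txnrd3 (0.152) and Adh5 (0.155). For Psat1 they were Npm1 (0.169), Mdh1 (0.172) and Eif3e (0.174). None of these 9 is a member. Psat1 was itself among the 3 genes nearest to Phgdh, at 0.216. The genes nearest to Ppp1r15a were the immediate early genes Gadd45b (0.409), Ier2 (0.501) and Irf1 (0.506). The neighbours of Phgdh and Ppp1r15a are named after their values were seen.

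The other genes of the pathway were read from 7 lists with 88 tested genes. Between the routes in controls, edgeR called 16 of the 88 lower and 3 higher, beside 8.16% and 10.2% of all genes. In knockouts it called 11 lower and none higher, beside 4.02% and 5.19%. DESeq2 called 19 lower and 4 higher in controls (10.1% and 12.2% of all genes), and 14 lower and 1 higher in knockouts (5.58% and 6.84%). With limma voom the counts were 22 lower and 4 higher in controls (12.6% and 15.5% of all genes), and 20 lower and 1 higher in knockouts (5.59% and 6.33%). Leaving out 1 library gave 9 to 20 lower in controls, the lowest without topical control 3 or systemic control 6, and 6 to 17 lower in knockouts, the lowest without topical cKO 5 and the highest without systemic cKO 4. With either satellite-like covariate none of the 88 was called in controls, and 8 or 13 were called lower in knockouts. The genes below are those called by edgeR.

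Aminoacyl-tRNA synthetases charge tRNAs with amino acids, and many are ATF4 targets. All 13 lay below 0 in controls (median -0.28), and 3 fell: Sars (log2 fold change -0.79), Aars (-0.47) and Yars (-0.32). In knockouts 11 of 13 lay below 0 (median -0.18), and Aars (-0.69), Cars (-0.54) and Yars (-0.41) fell. Non-overlapping groups with the lower level in systemic mice were found for 4 of the 13 in controls, beside 6.26% of all genes. In knockouts they were found for 3 of the 13, beside 3.32% of all genes. Of 11 further genes of serine, one-carbon and amino acid synthesis, 10 lay below 0 in controls (median -0.36), where Aldh18a1 (-0.72), of proline synthesis, and Cth (-1.15), of cysteine synthesis, fell. In knockouts 5 fell and the median was -0.71. They included Aldh18a1 (-0.84), Cth (-1.41) and Mthfd2 (-1.01), the mitochondrial folate enzyme that works beside Shmt2. Aldh18a1 averaged 16.8 CPM in topical and 10.2 CPM in systemic controls, and 15.7 and 8.72 CPM in the corresponding knockouts.

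Upstream, 14 genes of the eIF2alpha kinases, their phosphatase and eIF2B had 2 members that fell in controls, the phosphatase subunit Ppp1cb (-0.65) and the exchange factor subunit Eif2b2 (-0.45). In knockouts none was called, 3 had an unadjusted p under 0.05, and DESeq2 and limma voom each called Eif2b2 lower. Among 13 other stress genes linked to ATF4, both directions occurred in controls. Cdkn1a, the cell cycle inhibitor p21 (0.89), and Atf3, which is also an immediate early gene (0.86), rose, while Vldlr (-1.13) and Ddit4 (-1.20) fell. In knockouts Vldlr fell (-1.69). Thus Atf3 at 9060 CPM in systemic and 4980 CPM in topical controls went the opposite way from Atf4.

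The endoplasmic reticulum and mitochondrial arms were read likewise. Of 20 chaperone genes 5 fell in controls, led by the folding factors Pdia3 (-0.96), Calr (-0.87) and Canx (-0.87), and 1 rose, the stress sensor Ern1 (0.77). In knockouts none of the 20 was called by edgeR, DESeq2 or limma voom, with 1 at an unadjusted edgeR p under 0.05. Of 9 mitochondrial stress genes the chaperonins Hspe1 (-0.78) and Hspd1 (-0.70) fell in controls, and the protease Lonp1 (-0.49) fell in knockouts. DESeq2 and limma voom also called Lonp1 lower in controls, and limma voom also called Clpp, Hspa9, Hspd1 and Hspe1 lower in knockouts. Amino acid transporters numbered 8. None was called in controls by edgeR, where 2 had an unadjusted p under 0.05, while DESeq2 and limma voom called Slc1a5 higher (0.58 in edgeR, adjusted p = 0.0598), and limma voom called Slc7a1 lower. In knockouts Slc1a5 went the other way: it fell after systemic treatment (-0.87, adjusted p = 0.0116) with all 3 tools, and no other transporter was called.

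Slc1a5, the neutral amino acid and glutamine transporter, was the single gene of the 88 called by edgeR between genotypes. DESeq2 also called Ddit4, Sesn2 and Pdia3 higher in systemic knockouts, genes named here after their values were seen. It fell in systemic knockouts to 3.17 CPM from 5.87 CPM in systemic controls (log2 fold change -0.92, SE 0.21, adjusted p = 0.0270), without overlap. Its interaction was -1.45 (SE 0.30, adjusted p = 0.0417). Neither call was stable. With satellite-like transcripts over 50 CPM or their log2 level as covariate, the genotype value was -0.54 or -0.61, with the smaller of the 2 adjusted p-values at 0.980. The genotype call was also lost in a fit of only these libraries and on leaving out any one of systemic cKO 4, 5 or 6 or systemic controls 3, 5 or 6. The interaction call was lost with both satellite-like covariates and in 15 of 20 fits with 1 library left out. After topical treatment no gene of the 88 was called by any of the 3 tools, and 7 had an unadjusted edgeR p under 0.05.

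**Figure D4:**
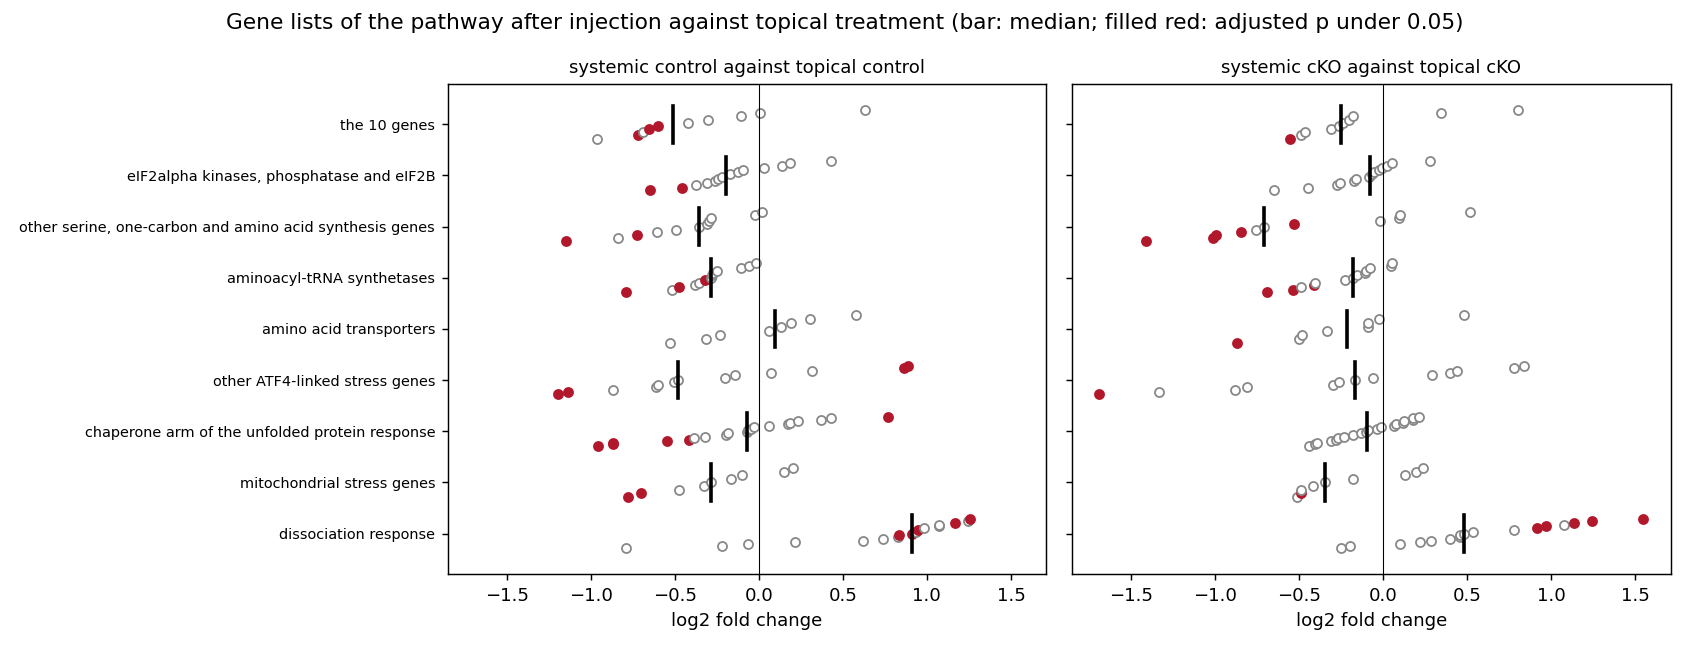
Log2 fold changes of the members and of the genes in each pathway list, 1 point a gene, for the 2 route comparisons, with called genes filled and the list median as a bar. The synthetase points lie at or below 0 in controls, and the dissociation response genes lie mostly above 0, with medians of 0.91 in controls and 0.48 in knockouts.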

How the data were processed

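Bulk RNA-seq of 20 mice was analysed from 1 table of raw read counts per gene, deposited by the authors. The submitters' processing notes name STAR, featureCounts, GRCm38 and mm10. Versions and strandedness are not given in the sources used here, so reads from overlapping genes on opposite strands, which share up to 4.11% of a member's exonic bases, may be mixed. Groups came from the labels. In R 4.3.3, edgeR 4.0.16 fitted all 20 libraries with TMM scaling, its default low-count filter (minimum count 10, total 15, leaving 12424 genes), robust dispersion and 1 coefficient a group. Tests were two-sided with Benjamini-Hochberg adjustment over all genes tested, and p-values rest on the spread between mice. DESeq2 1.42.0 and limma 3.58.1 (voom) were alternatives. CPM values of single genes are TMM-scaled unless stated and, per kilobase, divided by GENCODE exonic length (GRCm38). Summed CPM values of lists are not TMM-scaled. Promoters are from RefSeq (GRCm38.p6). On simulated counts for systemic against topical controls (12231 genes), 174 of 197 tested genes changed by 1.5 on the log2 scale were called, with 7 false calls. No member changed by as much, and smaller changes were not simulated. Members and lists were chosen with earlier results of these data known. All members are named. From each list up to 3 called genes per direction with the smallest adjusted p are named, and for called members the 3 nearest genes.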

Additional observations from a re-analysis of the deposited data

Results flagged for a closer look

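Each of the 10 genes was examined in each of the 4 groups for 1 mouse far from the other 4, and 3 of these 40 sets had one. Chance gives about 1 in 20. Asns was 56.7 CPM in topical control 5, above the other topical controls, which reached 43.2 CPM. Leaving that mouse out kept Asns lower in systemic than in topical controls at an adjusted p under 0.05. Atf5 was 4.15 CPM in topical cKO 3, with the next mouse at 2.66 CPM. Chac1 was 0.766 CPM in systemic control 1, with the next at 0.486 CPM, from 12 and 20 reads.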

How the results depend on the processing

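No member was called for genotype or interaction in any alternative, including each library left out. DESeq2 called Atf5 beside the 3 members called between routes in controls. These 3 became 5 with limma voom, which added Chac1 and Atf5. They became 5 with the mitochondrial share as covariate, which added Chac1 and Shmt2. They became 0 with satellite-like transcripts as covariate, either as over 50 CPM or on the log2 scale. The 1 called in knockouts became 2 with DESeq2, limma voom, a mean of at least 5 CPM, or sex as covariate, 3 with the mitochondrial share, and 0 with all genes that had a count, with satellite-like transcripts over 50 CPM, or in a fit of only the libraries compared. Leaving out 1 library gave 2 to 3 in controls and 0 to 2 in knockouts. The causes were not tested. The covariate of satellite-like transcripts over 50 CPM differs within a group only for systemic cKO 2, so fits with it rest on that library. With satellite-like transcripts over 50 CPM as covariate, the route values in controls were 0.66 for Trib3 and 0.074 for Atf5, the systemic genotype value for Trib3 was -0.059 and the Asns interaction -0.0051. On the log2 scale of that covariate, Trib3 was 0.46 and Ddit3 -0.014 between routes in controls, and the Asns interaction -0.089. Ddit3 between routes in controls was -0.000115 with DESeq2, -0.0049 with limma voom and -0.016 with all genes that had a count, and the Asns interaction was -0.061 with limma voom. Leaving out 1 library gave -0.061 to 0.082 for Ddit3 and -0.31 to 0.031 for Trib3 between routes in controls, -0.42 to 0.15 for Chac1 between routes in knockouts, and -0.036 to 0.20 for the Asns interaction. The sign changed without topical control 1 or 5 or systemic control 4 or 6 for Ddit3, without systemic control 3 or 4 for Trib3, and without topical control 5 or systemic cKO 4 for the Asns interaction. Atf4 and Asns between routes in controls were called in 20 of 20 such fits. Atf5, Chac1 and Trib3 fell out under the 5 CPM minimum. With a replicate block the counts stayed 3, 1, 0, 0 and 0. Under the block the interaction called 0 of all genes, the Slc1a5 genotype and interaction values had adjusted p = 0.0726 and 0.107, and 6 in place of 11 of the 88 pathway genes were called lower in systemic than in topical knockouts. Libraries that share a number had correlations of -0.314 to 0.338 between their deviations from group means. There were 3 or 4 such pairs of libraries a comparison, too few to decide whether the numbers pair mice. Low counts limit Chac1 and Atf5.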
